A study of Mus musculus with 30 samples.

Results

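The genes described here are 3 early growth response transcription factors, *Egr1*, *Egr2* and *Egr3*, and the corepressors that bind them, *Nab1* and *Nab2*. They were taken by name, as the rows of these 5 symbols among 54429 gene symbols in the liver time course and of their Ensembl identifiers among 55471 genes in the genotype libraries, and each of the 5 was present in both tables. The question that the samples address is how the daily pattern of Egr-1 and of liver gene expression changes with age, and what differs when *Egr1* is deleted in the liver.

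Egr proteins are zinc finger factors of the immediate-early class. Growth factors, hormones and other stimuli reach their genes through MAP kinases, the factor SRF and its Elk partners, and the transcripts appear and disappear quickly. Nab1 and Nab2 carry no DNA-binding domain of their own. They dock on a repression domain that Egr1, Egr2 and Egr3 share and bring in the NuRD chromatin complex, and *Nab2* is itself known as a target of Egr factors, so that it works as a feedback brake. In liver, Egr1 is known for its induction after injury and partial hepatectomy and by insulin, and it has been linked to clock genes.

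Livers of male C57BL/6J mice were collected at ZT1, 5, 9, 13, 17 and 21 (ZT is zeitgeber time, hours after lights on) in mice aged 2, 6 and 12 months. Every combination of age and time had 1 library, which makes 18. A second set of 12 libraries compared male mice with a liver-specific Egr-1 knockout (KO) with their littermate controls (WT) at the same 3 ages. At each age, 1 WT and 1 KO library came from the time at which Egr-1 protein was highest (H) and 1 of each from the time at which it was lowest (L). The study's methods place H at ZT13, ZT9 and ZT5 and L at ZT17, ZT21 and ZT21 for mice of 2, 6 and 12 months. The knockout was made by crossing *Alb*-Cre mice with floxed *Egr-1* mice, lines of strain 129 background that were crossed back to C57BL/6J. Cre from the albumin promoter acts in hepatocytes, so Kupffer, endothelial, stellate and blood cells of a KO liver keep an intact *Egr1*. All mice were kept in a cycle of equal light and dark and ate chow freely. No group had a second library, and although the study's captions speak of several mice per group, they do not say whether a library pooled them. The p-values therefore measure the spread between libraries that differ in time or age.

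Total counts ran from 13375377 to 16557378 per library in the time course and from 13747706 to 21748956 in the genotype set. All 10 hepatocyte markers examined, *Alb* and *Ttr* among them, had counts in each of the 30 libraries. *Egr1* went against the label in the genotype set. In the pair at 2 months L the library labelled KO had 116 *Egr1* reads and the library labelled WT had 21, and at 12 months H they had 125 and 120. At 2 months H they had 41 and 50, a difference within counting error, and this pair was kept throughout. The library labelled KO at 2 months L also had the highest summed neutrophil, macrophage and T cell markers of the 12 libraries, 30.9, 904 and 10.4 CPM, and their part in its *Egr1* was not tested. KO and WT are used here only as the labels give them. The KO minus WT values of *Nab1*, *Nab2* and *Egr2* are given with and without the pairs of 2 months L and 12 months H. That of *Egr1* is not, since its reads chose them. With these pairs left out, 9 of all genes were called in place of 201.

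Upstream windows of the members show where Egr proteins and SRF could bind. RefSeq promoter entries (GRCm38.p6, 250 bases before a transcription start, printed 5′ to 3′ on the gene's strand) were matched for 3 of the 5 members, *Egr2*, *Nab1* and *Nab2*. They are shown because the results turn on *Nab1* and *Nab2*, and because *Egr2* stood high in single libraries. Capitals mark GCGNGGGCG, a 9-base form of the Egr site, on either strand in *Nab1*, and the CArG box, the element bound by SRF, in *Egr2*. The windows lie at chr1:52500449-52500698 on the reverse strand for *Nab1*, chr10:67537619-67537868 on the forward strand for *Egr2*, and chr10:127666704-127666953 on the reverse strand for *Nab2*.

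Nab1: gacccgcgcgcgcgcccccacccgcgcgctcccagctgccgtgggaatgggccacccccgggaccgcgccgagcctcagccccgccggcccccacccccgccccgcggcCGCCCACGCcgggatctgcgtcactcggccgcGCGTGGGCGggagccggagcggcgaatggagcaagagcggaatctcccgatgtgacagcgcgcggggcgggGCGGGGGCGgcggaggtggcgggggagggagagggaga

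Egr2: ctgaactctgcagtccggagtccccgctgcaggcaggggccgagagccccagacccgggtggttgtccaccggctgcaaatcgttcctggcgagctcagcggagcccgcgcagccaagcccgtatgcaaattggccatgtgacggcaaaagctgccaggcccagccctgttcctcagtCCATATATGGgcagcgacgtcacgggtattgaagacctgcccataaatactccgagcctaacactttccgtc

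Nab2: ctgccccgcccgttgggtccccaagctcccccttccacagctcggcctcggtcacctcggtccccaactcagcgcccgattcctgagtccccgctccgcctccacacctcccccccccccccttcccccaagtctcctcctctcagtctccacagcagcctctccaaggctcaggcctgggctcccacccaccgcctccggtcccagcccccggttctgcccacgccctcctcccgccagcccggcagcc

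The *Nab1* window held the form GCGTGGGCG at -109 to -101 from the start and again, on the opposite strand, at -141 to -133. A further GCGNGGGCG lay at -38 to -30. Of 32851 promoter windows of this length, 0.536% held GCGTGGGCG on either strand and 4.70% held GCGNGGGCG, which includes the first. The *Egr2* window held a CArG box at -72 to -63, a motif found in 1.47% of windows. *Egr2* had 5 RefSeq windows, 4 of which held a CArG box, and 3 of these 4 overlap and share the same one. The *Nab2* window held none of the motifs searched, which beside the Egr forms and the CArG box were TGACGTCA, TGACG and CACGTG on both strands. These matches describe letters only, and the data hold no measurement of binding.

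The members differed widely in level. Compared per length, as FPKM over the summed exons of each gene, the medians over the 18 time-course libraries were 15.7 for *Nab1*, 3.12 for *Nab2*, 1.19 for *Egr1*, 0.0216 for *Egr2* and 0.0139 for *Egr3*. *Nab1* ran from 12.1 to 23.1 FPKM and stood above all other members in every library of the time course. *Nab2*, from 2.20 to 5.28 FPKM, and *Egr1*, from 0.337 to 8.37 FPKM, overlapped, as did *Egr2* and *Egr3*. In the genotype libraries the medians were 16.3, 3.88, 1.29, 0.0811 and 0.0323 FPKM in the same order. The spread over the day and between livers was in the opposite order among the 3 genes that were well counted. The highest time-course library exceeded the lowest 26.0-fold for *Egr1*, 2.44-fold for *Nab2* and 1.88-fold for *Nab1* in CPM, a count scaled to the normalized size of its library.

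*Egr1* (ENSMUSG00000038418), the family member that was deleted, lies at chr18:34859823-34864984 on the forward strand. At 2 months it was at 27.3, 8.90, 5.22, 1.45, 1.76 and 6.00 CPM from ZT1 to ZT21. At 6 months the values were 9.29, 37.8, 4.96, 8.22, 3.07 and 7.60 CPM. At 12 months they were 6.30, 4.53, 3.86, 4.12, 2.38 and 14.3 CPM. The highest library was thus at ZT1, ZT5 and ZT21 at the 3 ages, and each peak rested on a single library.

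**Figure D1:**
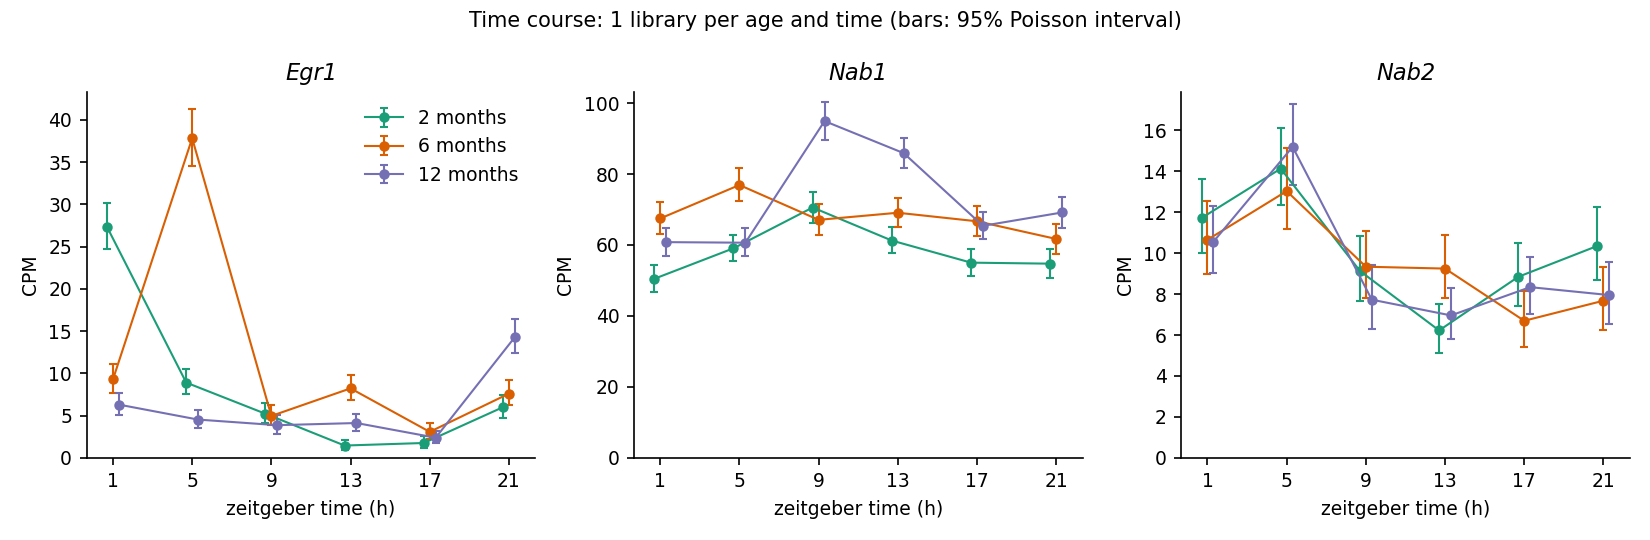
Level of *Egr1*, *Nab1* and *Nab2* in CPM against zeitgeber time, with 1 line for each age, 1 point for each library and bars for the exact Poisson 95% interval of its count. *Egr1* has 1 tall point at each age, *Nab2* is highest at ZT5 at all 3 ages, and *Nab1* at 12 months stands above 2 months at all 6 times.

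The first question of the time course is whether the members follow the day. A cosine and a sine of a 24 h period were fitted within each age. At 2 months 1 of the 3 members tested was called, against 4.73% of all genes, at 6 months 0 against 4.61%, and at 12 months 0 against 3.57%. *Egr1* was the member called, with a log2 amplitude of 2.00 and a peak at ZT2.16 at 2 months (edgeR's quasi-likelihood test, Benjamini-Hochberg adjusted p = 0.0155). This call was lost without ZT1, without ZT13 or without ZT17, where the edgeR adjusted p was 0.180, 0.117 and 0.0671. At 6 months the fitted amplitude of *Egr1* was 1.30 with a peak at ZT4.72 (edgeR adjusted p = 0.0809), and at 12 months it was 0.81 with a peak at ZT22.7 (edgeR adjusted p = 0.417). With 1 time left out, the 6-month amplitude ran from 0.38 to 1.72 (edgeR adjusted p from 0.0272 to 0.823). The 12-month amplitude ran from 0.42 to 1.03 (edgeR adjusted p from 0.325 to 0.794). The tests of whether the rhythm itself changed between ages called 0 members, against 0.105%, 0% and 0.0841% of genes for 2 to 6, 2 to 12 and 6 to 12 months. For *Egr1* the unadjusted edgeR p of these tests was 0.0915, 0.0424 and 0.0332, none of which passed after adjustment. An unadjusted edgeR p under 0.05 was reached by 1496, 659 and 1500 of the 14261 genes tested.

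*Nab2* (ENSMUSG00000025402), the inducible corepressor, lies at chr10:127660918-127668568 on the reverse strand. At 2 months it was at 11.7, 14.1, 9.13, 6.22, 8.84 and 10.4 CPM from ZT1 to ZT21. At 6 months it was at 10.7, 13.03, 9.34, 9.25, 6.70 and 7.68 CPM, and at 12 months at 10.6, 15.2, 7.73, 6.96, 8.34 and 7.95 CPM. At all 3 ages ZT5 held the highest value and ZT1 the next, and the lowest fell at ZT13, ZT17 and ZT13. Each of these maxima rested on a single library, and the share of all genes with the same maximum time at all 3 ages was not counted.

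Within a single age the fit gave *Nab2* amplitudes of 0.47, 0.40 and 0.43 on the log2 scale at 2, 6 and 12 months, with peaks at ZT2.19, ZT5.37 and ZT3.49. None of these passed the threshold (edgeR adjusted p = 0.122, 0.224 and 0.163). A fit with 1 rhythm shared by the 3 ages was added after these values were seen, and it assumes the same peak time at each age. It called 2 of the 3 members, against 15.8% of all genes. *Nab2* had a shared amplitude of 0.40 and a peak at ZT3.55 (edgeR's quasi-likelihood test, Benjamini-Hochberg adjusted p = 0.00328), and *Egr1* had 1.25 and ZT2.24 (edgeR adjusted p = 0.0113). The call of *Nab2* was lost without the 3 libraries of ZT5 (edgeR adjusted p = 0.0761), and that of *Egr1* without those of ZT17 (edgeR adjusted p = 0.0927). DESeq2 called all 3, *Nab1* included (adjusted p = 0.0340). The 6 values of each age were also set against cosines by rank, as JTK_cycle does, with an exact permutation p, two-sided. In this test *Egr1* at 2 months and *Nab2* at 6 months reached the smallest p the test allows, 0.0333 unadjusted, as did 8.66% and 8.18% of genes at those ages. At 2 and 12 months the exact permutation p of *Nab2* was 0.133 and 0.317.

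Age did not move the level of *Nab2* past the threshold. Its mean was 10.1 ± 2.70 CPM at 2 months, 9.44 ± 2.24 at 6 months and 9.45 ± 3.06 at 12 months (SD over 6 times). The log2 differences with their standard errors were -0.09 ± 0.12 for 6 minus 2 months and -0.09 ± 0.12 for 12 minus 2 months (edgeR adjusted p = 0.696 and 0.694).

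*Nab1* (ENSMUSG00000002881), the constitutive corepressor and the most abundant member, lies at chr1:52457294-52500679 on the reverse strand. At 2 months it was at 50.5, 59.1, 70.6, 61.2, 55.0 and 54.7 CPM from ZT1 to ZT21. At 6 months it was at 67.5, 76.9, 67.1, 69.1, 66.7 and 61.7 CPM, and at 12 months at 60.8, 60.6, 94.9, 85.9, 65.4 and 69.2 CPM. The 12-month libraries were higher than the 2-month ones at 6 of 6 times, while the 2 ranges overlapped. The gap was widest at ZT9 and ZT13 and smallest at ZT5.

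*Nab1* was higher in 12-month than in 2-month livers by 0.32 ± 0.09 (SE) on the log2 scale (edgeR's quasi-likelihood test with ZT as a block, Benjamini-Hochberg adjusted p = 0.0354). It was the 1 member of 3 tested that was called, and 11.6% of all genes were called in this comparison. Genes called as higher made up 6.44% of all genes. Of all genes, 9.49% were higher at all 6 times. The means were 58.5 ± 6.99 CPM at 2 months, 68.2 ± 4.96 at 6 months and 72.8 ± 14.3 at 12 months (SD over 6 times). The difference of 6 and 2 months was 0.22 ± 0.09 with 5 of 6 times higher, and it did not pass (edgeR adjusted p = 0.134). That of 12 and 6 months was 0.10 ± 0.09 with 3 of 6 times higher (edgeR adjusted p = 0.521).

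The call for *Nab1* was close to the threshold. It was lost when the libraries of ZT1, ZT9, ZT13, ZT17 or ZT21 were left out, with an edgeR adjusted p up to 0.122 over the 6 ways of leaving out a time, and without the block for ZT (edgeR adjusted p = 0.0866), while the log2 difference stayed between 0.27 and 0.37. Markers of other cells differed between the same ages. The summed B cell markers (5 of 5 with counts) were at 10.8 to 20.7 CPM at 2 months and 39.1 to 288 CPM at 12 months, and the summed cholangiocyte markers were at 29.8 to 46.6 and 16.6 to 28.6 CPM. In bulk tissue, more cells of a type and more RNA per cell cannot be told apart, and the part of these cells in the *Nab1* difference was not tested. Over the day, *Nab1* had a fitted amplitude of 0.19, 0.11 and 0.29 on the log2 scale at 2, 6 and 12 months, none of them called (edgeR adjusted p = 0.397, 0.789 and 0.148), and the shared rhythm had an amplitude of 0.18 with a peak at ZT10.4 (edgeR adjusted p = 0.0605).

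The level of *Egr1* was not called between any ages. Its log2 differences were 0.60 ± 0.49 (SE) for 6 minus 2 months, -0.18 ± 0.50 for 12 minus 2 months and -0.78 ± 0.49 for 12 minus 6 months (edgeR adjusted p = 0.471, 0.862 and 0.306). The corresponding shares of all genes called were 13.5%, 11.6% and 16.1%. With 1 time left out, these *Egr1* differences ran from 0.11 to 1.22, from -0.59 to 0.43 and from -1.23 to -0.20, none of them called. Summed neutrophil markers were at 21.5 to 141 CPM in the 6-month libraries, above the 1.96 to 5.63 CPM of 2 months and the 4.08 to 11.003 CPM of 12 months, and their part in the 6-month values was not tested.

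*Egr2* (ENSMUSG00000037868, chr10:67535475-67542188, forward strand) and *Egr3* (ENSMUSG00000033730, chr14:70077203-70082614, forward strand), relatives of *Egr1* best known from nerve and immune cells, were close to the floor of detection, set at 3 reads per library. Over the 18 time-course libraries *Egr2* had 33 reads in all, with 15 libraries at 3 reads or fewer, 6 of them at 0. Its highest libraries, 6 months ZT13 and 12 months ZT17, had 8 reads each. *Egr3* had 19 reads over the same libraries and at most 5 in any. Neither passed the filter on low counts in the time course, and with no filter none of their differences between ages or rhythms was called by edgeR.

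In the genotype set *Egr2* was at the same low level in most libraries but not in all. The libraries labelled WT had 3, 5, 64, 0, 5 and 5 reads at 2 months H, 2 months L, 6 months H, 6 months L, 12 months H and 12 months L. Those labelled KO had 2, 5, 4, 1, 8 and 39 reads in the same order. WT at 6 months H and KO at 12 months L thus stood apart, at 3.48 CPM (exact Poisson 95% interval 2.68 to 4.44) and 2.59 CPM (1.84 to 3.54). Every other library was at 0.514 CPM or below in both sets.

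The 2 high *Egr2* libraries were opposite in *Egr1*. WT at 6 months H had the highest *Egr1* of all 30 libraries, 72.4 CPM. Of the 12 genotype libraries it had the highest *Fos* (5.05 CPM), *Fosb* (1.68 CPM), *Junb* (68.4 CPM), *Ier2* (60.1 CPM) and *Atf3* (10.8 CPM). Its *Nr4a1*, 11.5 CPM, was below that of KO at 2 months L (14.1 CPM), and its *Dusp1*, 64.1 CPM, below that of KO at 12 months H (73.1 CPM). Its summed neutrophil markers were at 24.3 CPM and its hepatocyte markers, 100701 CPM, were the highest of the 12. The part of these cells was not tested. KO at 12 months L had 1.53 CPM of *Egr1*, the second lowest of the 12. Within its pair, *Egr2* in the library labelled KO differed from that labelled WT by -4.28 on the log2 scale at 6 months H (exact interval -6.20 to -2.86) and by 3.03 at 12 months L (1.69 to 4.73), intervals that cover counting error only. The 6 pairs together gave -0.13 ± 0.94 (edgeR adjusted p = 0.969), and without 2 months L and 12 months H the value was -0.43 (edgeR adjusted p = 0.954). KO at 12 months L had the lowest summed hepatocyte markers of the 12 libraries, 47505 CPM, and 159 CPM of B cell markers, where KO at 12 months H had 157 CPM with 8 *Egr2* reads. The part of these cells in its *Egr2* was not tested. *Egr3* had 0 to 7 reads in the genotype libraries, with 8 of 12 at 3 reads or fewer, 6 reads in WT at 6 months H and 1 in KO at 12 months L.

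**Figure D2:**
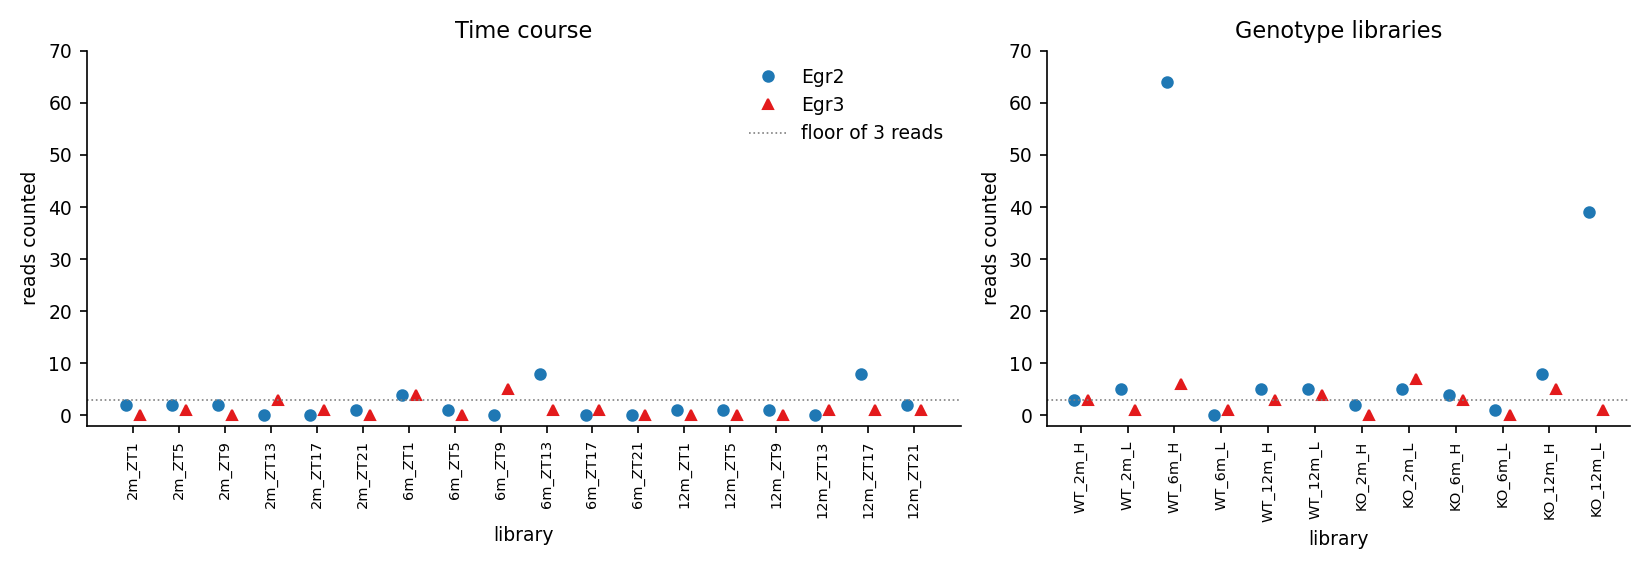
Reads counted for *Egr2* (circles) and *Egr3* (triangles) in each of the 18 time-course and 12 genotype libraries, with the floor of 3 reads dotted. *Egr2* reaches 64 reads in WT at 6 months H and 39 in KO at 12 months L and at most 8 elsewhere, and *Egr3* at most 7.

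The second question is what the members did when *Egr1* was targeted. Over the 6 pairs of libraries labelled KO and WT, 0 of the 4 members that passed the filter on low counts were called, against 1.35% of all genes, and 2272 genes (15.3%) had an unadjusted p under 0.05. DESeq2 also called 0 members. *Egr1* itself was at 2.57, 1.45, 72.4, 24.9, 5.83 and 54.8 CPM in WT and 1.99, 7.43, 5.54, 4.92, 6.11 and 1.53 CPM in KO, in the order 2 months H and L, 6 months H and L, 12 months H and L. It was lower in KO beyond counting error in 3 pairs, both of 6 months and 12 months L, and higher in 1, 2 months L. The log2 difference over the 6 pairs was -1.76 ± 0.79 (edgeR adjusted p = 0.324). With no filter on low counts *Egr1* was called at the same value (edgeR adjusted p = 0.0248), a setting in which 636 of all genes were called in place of 201.

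*Nab2* was the member whose difference had 1 sign in all pairs. The libraries labelled WT were at 12.4, 10.7, 14.3, 13.1, 12.7 and 12.7 CPM and those labelled KO at 10.05, 9.93, 10.5, 10.8, 8.89 and 10.7 CPM, in the same order. KO was lower in 6 of 6 pairs, as were 4.46% of all genes, and the groups overlapped only between 10.7 and 10.8 CPM. In 3 pairs, the H pairs of the 3 ages, the difference was larger than counting error. The means were 12.6 ± 1.19 CPM in WT and 10.2 ± 0.713 CPM in KO (SD, n = 6).

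The log2 difference of *Nab2* was -0.32 ± 0.08 (SE), which did not pass after adjustment over all genes (edgeR's quasi-likelihood test with the pair as a block, unadjusted p = 0.00280, Benjamini-Hochberg adjusted p = 0.0922). Without the pairs of 2 months L and 12 months H, where KO had no less *Egr1*, it was -0.32 (edgeR adjusted p = 0.352), and it was -0.42 in the H pairs alone and -0.22 in the L pairs alone (edgeR adjusted p = 0.266 and 0.690). The smallest *Nab2* difference, -0.10 on the log2 scale, was in the pair of 2 months L, where KO had more *Egr1*, and the largest, -0.51, was at 12 months H, where *Egr1* was equal within counting error. Summed hepatocyte markers, 10 of 10 with counts, were at 77458 to 100701 CPM in WT and 47505 to 71021 CPM in KO, ranges that did not overlap, and their part in the difference was not tested.

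Reads on *Nab2* may also belong to its neighbours if counting took no account of strand, which was not given in the sources used here. On the opposite strand its exons overlap *Stat6*, a signal transducer of interleukins, by 40 bases, *Nemp1* by 151 bases and the antisense gene *Gm16229* by 1050 bases, of 2941 exon bases in *Nab2*. *Stat6* differed between KO and WT by -0.09 ± 0.07 on the log2 scale (edgeR adjusted p = 0.590), and *Gm16229* had at most 1 read in any library. *Nemp1* had 43 to 101 reads in the genotype libraries, and its difference between KO and WT was not examined. The part of these neighbours in the *Nab2* counts was not tested.

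*Nab1* was at 79.2, 59.3, 78.4, 66.5, 62.6 and 75.4 CPM in WT and 65.7, 65.8, 71.9, 63.5, 50.9 and 74.4 CPM in KO. It was lower in KO in 5 of 6 pairs and higher at 2 months L. The groups overlapped over most of their range, and the log2 difference was -0.11 ± 0.07 (edgeR adjusted p = 0.504), or -0.12 without 2 months L and 12 months H (edgeR adjusted p = 0.710). In the 3 H pairs alone it was -0.23 (edgeR unadjusted p = 0.0155, adjusted p = 0.337) and in the 3 L pairs alone it was 0.01, with the test of that contrast itself at -0.25 ± 0.13 (edgeR unadjusted p = 0.0761, adjusted p = 0.998).

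**Figure D3:**
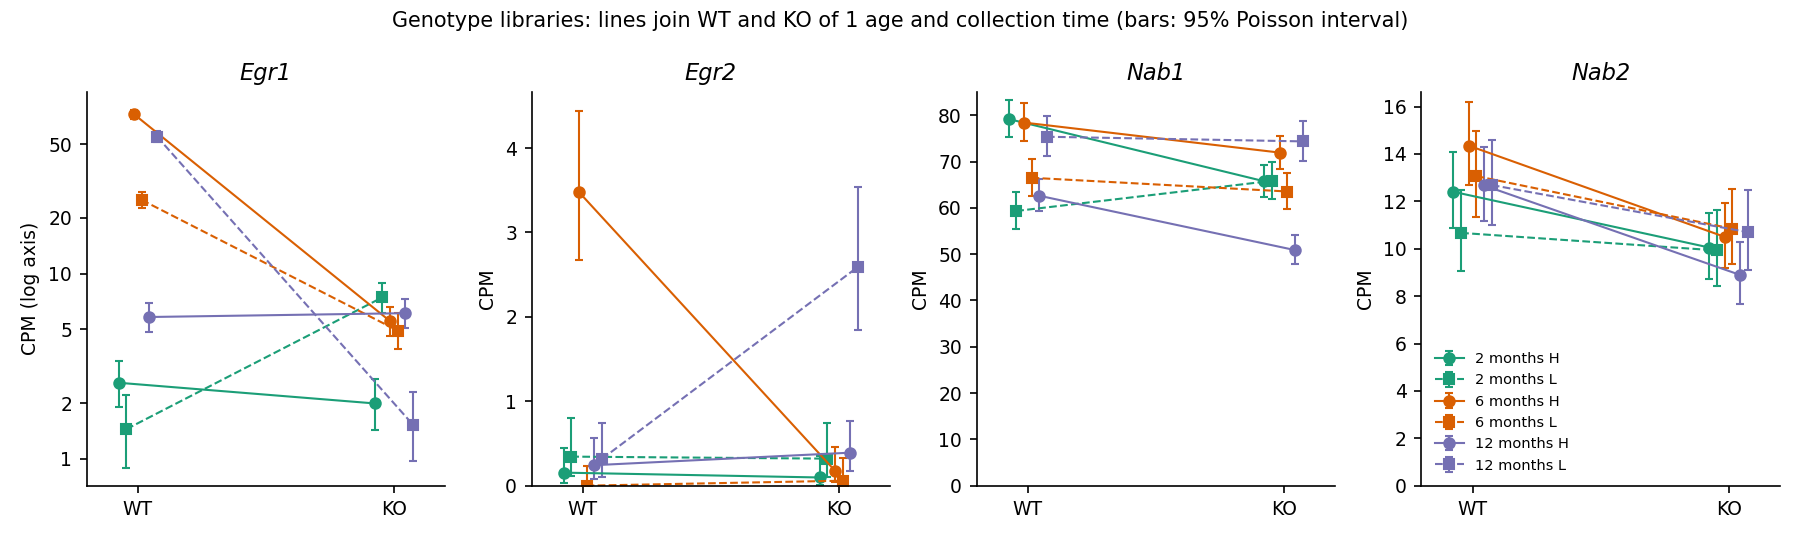
Level in CPM of *Egr1* (log axis), *Egr2*, *Nab1* and *Nab2* in the libraries labelled WT and KO, with lines joining the pair of 1 age and collection time and bars for the exact Poisson 95% interval. All 6 lines of *Nab2* slope down, from 10.7 to 14.3 CPM in WT to 8.89 to 10.8 CPM in KO, while those of *Egr1* and *Egr2* cross.

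Whether the genotype difference depended on time or age was tested directly. For genotype by time of collection 0 of 4 members were called, against 0.00674% of all genes, and for genotype by age 0 of 4, against 0.0135%. For *Egr2* the unadjusted edgeR p was 0.0372 for time and 0.0177 for age (edgeR adjusted p = 0.977 and 1.00). These rest on its 2 high libraries, which also carried it past the filter on low counts. In KO minus WT *Egr2* was not tested when the pair of 6 months H or that of 12 months L was left out. Between H and L, 0 of 4 members and 0 of all genes were called (0%), with 3 genes (0.0202%) at an unadjusted edgeR p under 0.05, and DESeq2 called 0 members. The H and L times differed between the ages, so daily changes of opposite sign count as spread in this test. It cannot show that a member was equal at H and L within an age.

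The H and L times were set from Egr-1 protein, and *Egr1* transcript did not follow them in every pair. H exceeded L beyond counting error in WT at 2 months, WT at 6 months and KO at 12 months, and L exceeded H in KO at 2 months and WT at 12 months. In WT at 12 months the *Egr1* values were 5.83 CPM at H and 54.8 CPM at L. The time course gave 4.53 CPM at ZT5, the H time of that age, and its highest 12-month value, 14.3 CPM, at ZT21, the L time. At 6 months WT had 72.4 CPM at H, and the time course had 4.96 CPM at the same ZT9. The tables were normalized separately, and the values are set side by side without a test.

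**Figure D4:**
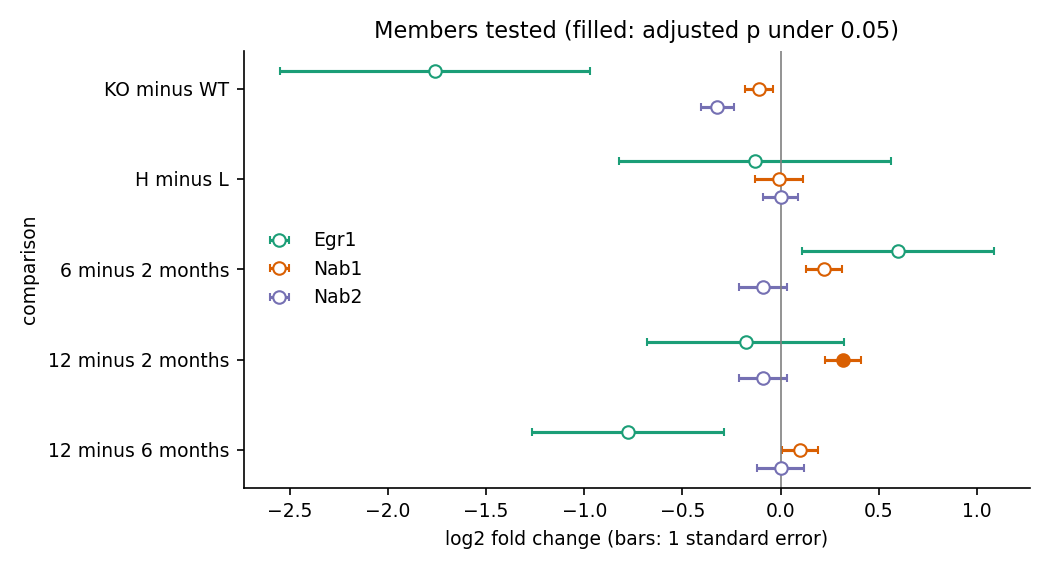
Log2 fold change of *Egr1*, *Nab1* and *Nab2* in 5 comparisons, with bars of 1 standard error and filled points for an edgeR adjusted p under 0.05. The 1 filled point is *Nab1* in 12 minus 2 months, at 0.32, and *Nab2* in KO minus WT lies at -0.32 with a short bar.

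The members were also compared with each other across libraries, as a description. The points share the time of day and the age, so no p is given. Over the 18 time-course libraries, on the scale of log2(CPM + 0.5), *Egr1* and *Nab2* had Pearson r = 0.55 and Spearman rho = 0.59. Of 12469 genes, 2.84% had an r with *Egr1* as high as that of *Nab2*. Within 2, 6 and 12 months r was 0.77, 0.87 and -0.01, each over 6 libraries, and without the 2 libraries farthest from the median of *Egr1*, 2 months ZT1 and 6 months ZT5, the r over the remainder was 0.40. Over the 12 genotype libraries it was 0.63. *Egr1* with *Nab1* gave -0.03, and *Nab1* with *Nab2* gave -0.34, against 0.31 and 0.64 in the genotype set. Within 2, 6 and 12 months r was -0.40, 0.74 and -0.18 for *Egr1* with *Nab1*. For *Nab1* with *Nab2* it was -0.34, 0.78 and -0.71.

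**Figure D5:**
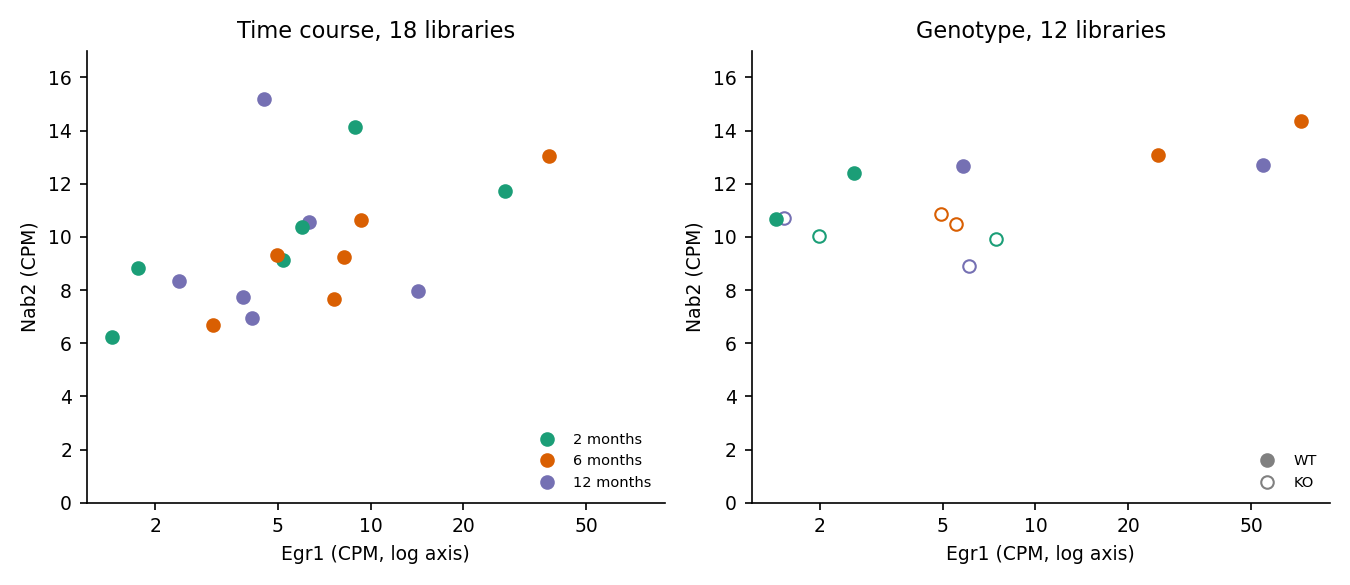
Level of *Nab2* against that of *Egr1* (log axis), both in CPM, for the 18 time-course libraries and the 12 genotype libraries, coloured by age, with KO as open circles. At 12 months the highest *Nab2*, 15.2 CPM at ZT5, goes with 4.53 CPM of *Egr1*, and the open circles of KO lie at 10.8 CPM of *Nab2* or below.

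The 5 genes most like each member over the 18 libraries were listed by the same r. For *Egr1* they were *Marveld2*, a tight junction protein (0.78), *Sgsh*, a lysosomal enzyme of heparan sulfate breakdown (0.77), *Tspan9*, *Zmynd8* and *Fbxo6*. For *Nab2* they were *Ccar2*, an inhibitor of the deacetylase Sirt1 (0.87), the receptor gene *Erbb3* (0.85), *Rell1*, *Tab1* and *Zfp26*. For *Nab1* they were the kinase gene *Hipk3* (0.84), the hypoxia factor *Hif1a* (0.81), *Mmadhc*, the translation release factor *Etf1* (0.81) and *Heca*. In the genotype libraries r was 0.83 for *Etf1* with *Nab1*, but -0.54 for *Sgsh* with *Egr1* and -0.48 for *Ccar2* with *Nab2*.

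Genes that act with the members were read from lists. Of the remaining family, *Egr4* had 0 reads in all 30 libraries. *Wt1*, a zinc finger factor that reads a related site and is known from stellate and mesothelial cells, was higher at 6 than at 2 months by 1.14 ± 0.24 (SE, log2) and at 12 than at 2 months by 1.08 ± 0.24 (edgeR adjusted p = 0.00600 and 0.00877). Of 31 immediate-early genes that are induced with *Egr1*, 27 were tested in the time course. From 2 to 6 months 10 of them rose and 0 fell, where 13.5% of all genes were called, with a median log2 change of 0.43 against 0.01 for all genes. They included *Fos* (2.01), *Gadd45b* (1.64), *Junb* (1.49) and *Fosl2* (1.07), with edgeR adjusted p from 0.000139 to 0.00725. From 6 to 12 months, where 16.1% of all genes were called, 1 rose and 6 fell, *Fos* (-1.84), *Junb* (-1.36), *Btg2* (-1.16) and *Jun* (-0.70) among them (edgeR adjusted p from 0.000266 to 0.0128). Beside the neutrophil markers, summed cholangiocyte markers were at 37.5 to 145 CPM at 6 months and hepatocyte markers at 58563 to 109461 CPM, against 95037 to 107894 CPM at 2 months. Their part was not tested. The 12 minus 2 months comparison (11.6% of all genes) called 4 as higher and 1, the phosphatase gene *Dusp1*, as lower, with a log2 change of -0.57 (edgeR adjusted p = 0.0371). In KO against WT 0 of 30 were called, where 1.35% of all genes were.

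*Junb*, an AP-1 subunit, was called rhythmic at both 2 and 6 months. Its amplitude was 1.18 on the log2 scale with a peak at ZT4.69 at 2 months, and 1.09 and ZT3.98 at 6 months (edgeR adjusted p = 0.000714 and 0.000894). In all, 4, 5 and 2 of 28 immediate-early genes were called rhythmic at 2, 6 and 12 months, against 4.73%, 4.61% and 3.57% of all genes. Their peaks differed, with *Btg1* at ZT22.7 at 2 months and *Klf10* at ZT8.14 at 2 months and ZT11.0 at 12 months. The calls at 2 and at 12 months each include a gene that is also counted among the clock genes below.

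The route from growth factor receptors through MAP kinases to SRF was represented by 35 genes, all tested. In KO against WT 0 were called, where 1.35% of all genes were. From 2 to 12 months 3 fell and 0 rose, no more than the 11.6% of all genes called. They were the receptor genes *Egfr* (-0.75) and *Met* (-0.35) and the adaptor gene *Shc1* (-0.28), with edgeR adjusted p = 0.0145, 0.0374 and 0.0277. From 2 to 6 months *Spry4* and *Araf* fell, with log2 changes of -1.10 and -0.21 (edgeR adjusted p = 0.0168 and 0.0399). These 2 of 35 were also no more than the 13.5% of all genes. The list's median change was 0.06 from 2 to 6 months and -0.02 from 2 to 12 months. Rhythm was called for 2, 2 and 1 of them at the 3 ages, near the 4.73%, 4.61% and 3.57% of all genes, *Erbb3* at 6 months with a peak at ZT5.20 (edgeR adjusted p = 0.0340).

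Of 13 genes of the NuRD complex, through which Nab proteins repress, 0 were called in KO against WT (1.35% of all genes). The count was also 0 in 6 minus 2 months (13.5%) and in 12 minus 6 months (16.1%). Rhythm was called for 0 of them at 2, 6 and 12 months, against 4.73%, 4.61% and 3.57% of all genes. *Mbd3*, a methyl-CpG-binding-domain subunit, rose from 2 to 12 months by 0.45 (edgeR adjusted p = 0.0107). It was the 1 gene of the 13 called there, no more than the 11.6% of all genes. Of 8 genes that the study names as holding Egr-1 sites, from earlier work or from its own search, 0 were called in KO against WT (1.35% of all genes). *Cidea* differed there by 2.18 (edgeR adjusted p = 0.142), with 0 and 1 reads in WT at 2 months H and L. From 2 to 12 months 3 of the 8 rose and 0 fell, where 11.6% of all genes were called. *Cidea*, a lipid droplet gene, and *Me1*, malic enzyme, were among those that rose, by 5.67 and 1.34 on the log2 scale (edgeR adjusted p = 2.91e-05 and 0.00127). *Cidea* had at most 1 read in any 2-month library of the time course, below the floor of 3. The 12-month libraries of the time course had 7 to 64 *Cidea* reads, so the size of its change is uncertain. That list came from the study of these samples and is no independent evidence of a direction. Of 9 clock genes taken as a reference, 9, 8 and 9 were called rhythmic at 2, 6 and 12 months, against 4.73%, 4.61% and 3.57% of all genes. A change of rhythm from 2 to 6 months was called for 1 of the 9, *Nr1d1*, against 0.105% of all genes (edgeR adjusted p = 0.0295). Its fitted peak was at ZT6.44 at 2 months and ZT9.65 at 6 months. Those of *Cry1*, *Dbp* and *Nr1d2*, not called for a change, were at ZT18.6, ZT9.08 and ZT9.64 and at ZT21.3, ZT11.8 and ZT11.7. In level 0 of the 9 clock genes differed between genotypes (1.35% of all genes) or ages (11.6% to 16.1%).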

How the data were processed

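Liver RNA was sequenced in 18 time-course and 12 genotype libraries. The authors deposited counts of reads per gene, without normalization, and the submitters' processing notes name fastp, HISAT2, featureCounts and the build mm10. The strand setting of the counting was not given in the sources used here. No per-sample column was left unused (0 columns). Counts were tested with edgeR 4.0.16 (R 4.3.3; TMM factors, filterByExpr, quasi-likelihood F-test, Benjamini-Hochberg adjustment over all genes tested, threshold 0.05), with the pair, the age and genotype, or ZT as a block, and DESeq2 1.42.0 as an alternative. Rhythms were fitted as a cosine and sine of 24 h. The fit of a shared rhythm was chosen after seeing the data. The exact permutation test took all 720 orders of 6 values. CPM used TMM-normalized library sizes, and FPKM the library totals and GENCODE M21 exons (GRCm38). Intervals at 95% cover counting error only. Alternatives changed normalization, filter, blocks, tool and libraries.

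The members and lists were chosen with earlier results of these data known. The genes named are the members, the 5 genes most like each, and genes of the lists with the smallest adjusted p in each comparison. *Cidea* in KO against WT, *Egr4*, and the neighbours of *Nab2* were named beside these. The scripts were tested on simulated data with known changes. Values of 1 listed gene are not reported here.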

Additional observations from a re-analysis of the deposited data

How the results depend on the processing

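Counts of members called stayed within 1.5 times of the reported count under 135 alternatives and moved under 18. Values of single members kept direction and side of the threshold under 290, reversed under 32, fell short of the threshold under 11 and newly passed it under 6. With no filter on low counts *Egr1* was called, so the count was 1, in KO minus WT, in genotype by age, in 12 minus 6 months and in the rhythm at 6 months (edgeR adjusted p = 0.0248, 0.000371, 0.0161 and 0.0178). Over all genes the calls in these 4 comparisons were then 636, 100, 2487 and 768, against 201, 2, 2243 and 657 with the filter. More genes are tested there, 25528 and 25804. Leaving out 1 time or pair at a time gave 0 to 1 members called in 12 minus 2 months, 0 to 1 in the rhythm at 2 months, 0 to 1 at 6 months and 1 to 2 in the shared rhythm. Counted at the smallest exact permutation p, unadjusted, there was 1 member at 6 months, *Nab2*, and 1 at 2 months, *Egr1*. Replicates carry no numbers, so the blocks are the pair, the age and genotype, or ZT. Without the ZT block 0 members were called in 12 minus 2 months, and dropping a block changed no other count past the limit of 1.5 times.

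Reversed values belonged to differences that were not called. For H minus L without the replicate block *Nab1* was at 0.00064 and *Nab2* at 0.0077. Further reversals in this contrast were *Egr1* 0.012 in DESeq2 and 0.048 in KO alone, *Nab1* 0.00081 with RLE size factors, 0.00081 in DESeq2, 0.0036 with no filter and 0.12 in WT alone, and *Nab2* 0.0075, 0.0077, 0.010 and 0.11 in the same order. Leaving out 1 combination gave -0.60 to 0.55 for *Egr1*, -0.26 to 0.20 for *Egr2*, -0.090 to 0.11 for *Nab1* and -0.041 to 0.057 for *Nab2*. In KO minus WT, *Egr2* was 0.079 in DESeq2 and *Nab1* 0.0062 in the L pairs. *Egr1* ran from -1.04 to 1.93 for genotype by time of collection and from -0.59 to 0.43 in 12 minus 2 months (0.43 without ZT1). *Nab2* in 12 minus 6 months was 0.0019 at a mean CPM of at least 1, 0.00016 in DESeq2, 0.025 without the ZT block, and -0.071 to 0.081 with 1 time left out. The cause of these changes was not tested.

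*Egr2* passed the filter in 4 of 6 fits with 1 pair or combination left out, other than genotype by age (6 of 6), and in none of the fits of H, L, WT or KO alone, so these gave no value. In KO minus WT the fits without *Egr2* left out the pair of 6 months H or of 12 months L, which hold its 64 and 39 reads. Depth limited *Egr2* and *Egr3*, and 1 library per group limited every comparison.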
